A study of Homo sapiens with 8 samples.

Results

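The EGF receptor family and its ligands were followed in KYSE850, an established cell line from a human esophageal squamous cell carcinoma. All probes whose RefSeq accession maps to EGFR, ERBB2, ERBB3, HBEGF, AREG, EREG, TGFA, BTC or EPGN were taken, which gave 15 of the 42405 non-control probes on each array, for 3 receptors and 6 ligands. The 8 one-colour arrays came from cells transfected with a control siRNA (4 arrays) or with siRNA against KHSRP (4 arrays), and the study asked which mRNAs change when KHSRP is lowered. Such small interfering RNAs bring about the cleavage of mRNAs with a matching sequence. KHSRP is an RNA-binding protein that binds AU-rich stretches of mRNAs and takes part in mRNA decay, splicing and miRNA maturation. Both groups are the same line, and the siRNA is the only difference that the labels name. The labels give neither the siRNA sequence used for each array nor the dose and time, and nothing in them says that the replicates were separate cultures, so that the p-values measure the spread between these samples, which may be technical.

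EGFR, ERBB2 and ERBB3 are transmembrane receptors that pair on the cell surface. EGFR is a tyrosine kinase that binds EGF-type ligands, ERBB2 binds no known ligand and serves as the preferred partner of the others, and ERBB3 binds neuregulins and has little kinase activity of its own. HBEGF, AREG, EREG, TGFA, BTC and EPGN are made as membrane-anchored precursors and are released by cell-surface proteases. Squamous epithelium of skin and esophagus uses these ligands as autocrine growth factors, and several of their mRNAs are short-lived. HBEGF mRNA carries an AU-rich 3′ end.

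Promoter windows of 300 bases around the annotated start, from RefSeq on GRCh38.p14, are given for 4 ligands, because HBEGF was the member called between the siRNA groups and because EPGN, EREG and AREG lie next to each other on chromosome 4, with no other protein-coding gene between them, yet differed in how their probes varied over the arrays. BTC is the next protein-coding gene after AREG. A window was found for 8 of the 9 genes, and ERBB3 had none. The capitals mark 4 motifs searched on both strands, namely TATAAA (the core of a TATA box), TGACGTCA (a cyclic AMP response element), TGANTCA (an AP-1 site) and GGGCGG (a GC box).
HBEGF, chr5:140346554-140346853, minus strand: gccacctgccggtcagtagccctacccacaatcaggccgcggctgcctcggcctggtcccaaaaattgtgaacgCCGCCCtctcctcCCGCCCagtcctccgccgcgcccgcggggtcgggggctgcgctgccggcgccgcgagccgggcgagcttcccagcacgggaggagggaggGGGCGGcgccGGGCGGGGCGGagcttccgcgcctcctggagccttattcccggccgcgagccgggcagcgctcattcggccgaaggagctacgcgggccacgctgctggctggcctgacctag
EPGN, chr4:74308220-74308519, plus strand: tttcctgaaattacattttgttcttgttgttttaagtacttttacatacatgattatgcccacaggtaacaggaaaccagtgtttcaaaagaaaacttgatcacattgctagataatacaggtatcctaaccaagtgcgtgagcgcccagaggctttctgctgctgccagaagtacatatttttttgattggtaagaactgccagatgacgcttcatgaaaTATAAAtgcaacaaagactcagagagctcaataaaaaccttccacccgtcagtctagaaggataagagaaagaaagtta
EREG, chr4:74364895-74365194, plus strand: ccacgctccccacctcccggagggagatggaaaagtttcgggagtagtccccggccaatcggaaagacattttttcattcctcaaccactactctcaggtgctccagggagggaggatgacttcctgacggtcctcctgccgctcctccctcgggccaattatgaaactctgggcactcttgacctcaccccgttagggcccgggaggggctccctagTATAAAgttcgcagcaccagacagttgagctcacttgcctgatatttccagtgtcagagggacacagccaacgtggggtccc
AREG, chr4:74444886-74445185, plus strand: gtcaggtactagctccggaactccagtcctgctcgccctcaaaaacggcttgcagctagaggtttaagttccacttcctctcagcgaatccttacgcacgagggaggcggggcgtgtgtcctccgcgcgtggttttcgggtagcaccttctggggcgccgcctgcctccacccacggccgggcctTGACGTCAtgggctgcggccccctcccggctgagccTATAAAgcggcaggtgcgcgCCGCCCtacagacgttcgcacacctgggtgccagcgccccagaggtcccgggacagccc

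The windows of EPGN, EREG and AREG each held 1 TATAAA, a motif present in 11.53% of all 35116 windows of that length in the table. The HBEGF window held no TATAAA and 5 GC boxes, of which neighbouring copies share 1 base, while 44.95% of all windows held at least 1 GC box. AREG alone of the 4 held TGACGTCA, which 1.85% of all windows hold, and TGANTCA was in none of the 4 against 7.71% of all windows. G and C made up 66.3% of the AREG window, 57.7% of EREG and 37.7% of EPGN, and more of HBEGF than of any of these. These matches are descriptions of the letters and were not tested as sites.

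Between 45.1% and 49.4% of the probes on an array were well above background by the scanner software's own criterion, and no spot was saturated. KHSRP itself fell, with a level on probe A_23_P16157 of 6.08 ± 0.24 in the control siRNA arrays and 2.71 ± 0.19 in the KHSRP siRNA arrays (mean ± SD, n = 4 each, log2 relative to the 75th percentile of the array), so that 9.66% of the control signal was left (limma, adjusted p = 5.9e-05; exact two-sided permutation test, p = 0.0286, the smallest that 4 against 4 arrays allow). A second KHSRP probe was well above background on 4 control siRNA arrays and on 0 KHSRP siRNA arrays. All 8 squamous markers, among them KRT5, KRT14 and TP63, were well above background on all arrays, and the endothelial markers PECAM1, VWF and CDH5 on 0 arrays. Of the other listed markers, COL1A1 (fibroblast), CD14 (leukocyte), and CDX2 and MUC2 (intestinal-type epithelium) were above background on all 8 arrays, and their part in any result was not tested. In bulk RNA, fewer cells of a type and less RNA per cell cannot be told apart.

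The arrays differed in a way that the siRNA groups do not explain, and this touched most of the receptor and ligand probes. The series matrix numbers the arrays from 1 to 4 within each group, and its columns 3 and 4 of the KHSRP siRNA group hold the values of the scanner files titled 4 and 3. Arrays that share a series matrix number deviated from their group means together, at r = 0.52, 0.43, 0.83 and 0.84 across 18760 probes (genes are not independent replicates), whereas arrays that share the number in the sample titles gave r = 0.52, 0.43, -0.67 and -0.64. This was not particular to equal numbers, since all 12 pairs of arrays whose series matrix numbers are both odd or both even correlated at 0.29 to 0.84, and all 16 pairs of an odd with an even number at -0.75 to -0.13. The arrays thus fell into 2 sets that cross the siRNA groups. The series matrix number was therefore used as a block in an alternative fit, called the array number below, and arrays are named by their titles. Which numbering records a shared culture or day was not given in the sources used here.

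Of the 15 probes, 11 were tested, for 7 of the 9 genes. A probe was tested when it was well above background on all 4 arrays of at least 1 group. The only BTC probe was above background on none of the 8 arrays, as were 1 of the 2 TGFA probes and 1 of the 3 ERBB3 probes. The EPGN probe was above background on 3 arrays of each group and was described without a test. No BTC signal was therefore detectable above background in either group.

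HBEGF was the 1 member probe of the 11 tested that was called between the groups, and it rose. Across the array, 5.54% of the 18761 tested probes were called at an adjusted p under 0.05, with 1.92% higher and 3.62% lower in KHSRP siRNA cells, so that 1 of 11 is near the background and is no result about the family as a whole. At an unadjusted p under 0.05, 3 of the 11 passed, against 3677 of all 18761 tested probes. By sign, 7 of the 11 were higher and 4 lower, and the median change was 0.05 against 0.01 over all tested probes. The median size of the change was 0.32 against 0.20 over all tested probes (log2 differences).

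**Figure D1:**
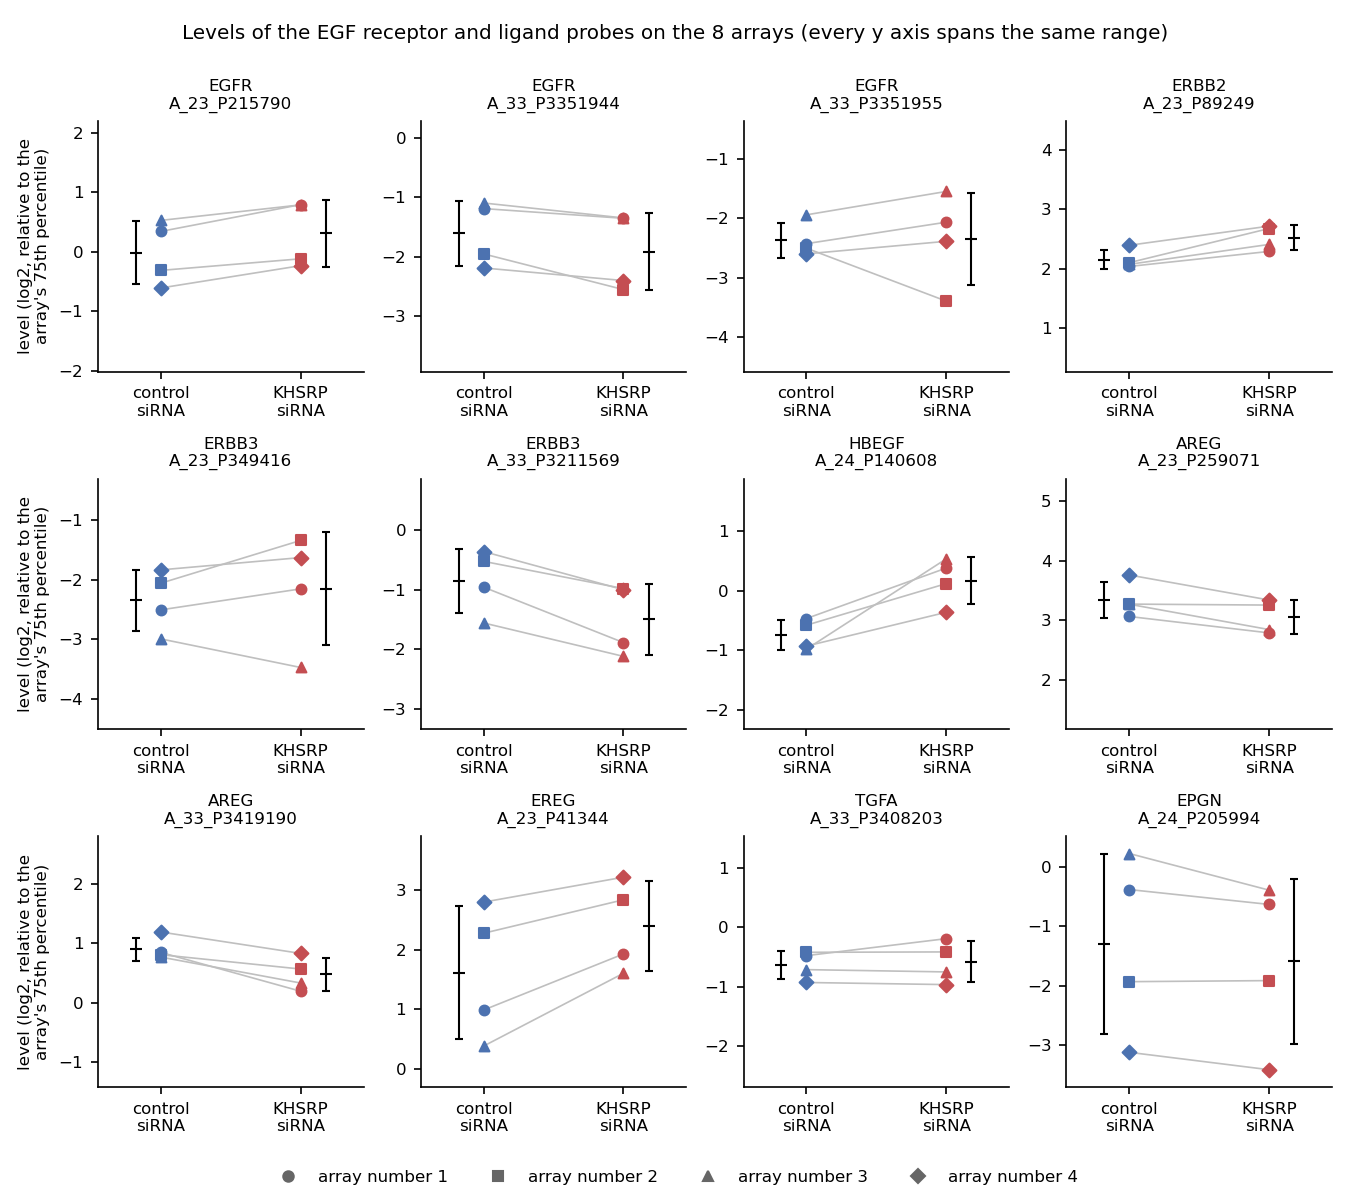
Level of each tested receptor and ligand probe, and of EPGN, on the 8 arrays (y axis, log2 relative to the array's 75th percentile; each panel spans the same range around its own values). Blue points are control siRNA and red points KHSRP siRNA, with shapes for the array number and grey lines joining arrays of the same number; black bars are the mean ± SD of 4 arrays. All 4 HBEGF points in KHSRP siRNA lie above all 4 control points, while in EREG, EGFR and EPGN the spread within a group exceeds the shift between groups.

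HBEGF, the heparin-binding ligand of EGFR, had levels of -0.46, -0.57, -0.98 and -0.93 on control siRNA replicates 1 to 4. On KHSRP siRNA replicates 1 to 4 the levels were 0.39, 0.12, -0.36 and 0.54. All KHSRP siRNA arrays lay above all control arrays, with replicate 3 of the KHSRP siRNA group closest to the control range. The group means were -0.73 ± 0.25 and 0.17 ± 0.39 (SD, n = 4 each), a 1.88-fold higher signal, with a log2 difference of 0.91 and a 95% confidence interval of 0.41 to 1.40 (limma, adjusted p = 0.048). HBEGF was the 1 of 11 tested member probes whose groups did not overlap, against 14.8% of 18760 tested probes.

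The direction of the HBEGF change was the same in each comparison below, and its call was not. The differences between arrays of the same number were 0.85, 0.70, 1.52 and 0.57, and those within the slides were 0.77 on slide 1 and 1.04 on slide 2 (2 arrays of each group per slide). The adjusted p was 0.013 with the array number as a block and 0.104 with the title number as a block. Leaving out 1 array at a time kept the change between 0.79 and 1.08, but the call was kept only without KHSRP siRNA replicate 3, in 1 of 8 such fits (limma, adjusted p from 0.022 to 0.130). Under quantile normalization, scaling to the median of the array and normexp background correction the adjusted p was 0.053, 0.145 and 0.095.

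Among the 15477 other named probes tested, those closest to HBEGF over the 8 arrays were of RFFL, MOB3A and AHNAK2. After the mean of each probe was subtracted, their root mean square differences from HBEGF were 0.17, 0.18 and 0.19, against a median of 0.61 over all these probes. RFFL rose by 0.997, MOB3A by 0.93 and AHNAK2 by 0.88 on the log2 scale (limma, adjusted p = 0.0046, 0.025 and 0.017). These genes were picked for following HBEGF over the same 8 arrays, so a similar rise was built into the choice. Their p-values are therefore no separate evidence.

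EREG, which binds EGFR and ERBB4, had the widest range of the tested member probes over the 8 arrays, 2.84. On control siRNA replicates 1 to 4 the level was 0.99, 2.28, 0.38 and 2.80, a 5.35-fold range. On KHSRP siRNA replicates 1 to 4 it was 1.93, 2.84, 3.22 and 1.60. The groups overlapped, and the difference of 0.79 between their means (1.61 ± 1.12 and 2.40 ± 0.76, SD, n = 4 each) was not called (limma, adjusted p = 0.534). Between arrays of the same number, EREG was higher in KHSRP siRNA in 4 of 4 pairs, by 0.94, 0.56, 1.22 and 0.42, and with the array number as a block it was called higher (95% confidence interval 0.42 to 1.15, adjusted p = 0.014).

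AREG, a lower-affinity ligand of EGFR, was measured by 2 probes of the same transcript, both lower in KHSRP siRNA on average. Probe A_23_P259071 read 3.06, 3.27, 3.27 and 3.76 on the control siRNA arrays and 2.79, 3.25, 3.34 and 2.84 on the KHSRP siRNA arrays, with overlap. Its difference was -0.28 (limma, adjusted p = 0.496; 0.065 with the array number as a block). Probe A_33_P3419190 read 0.84, 0.80, 0.76 and 1.19 against 0.19, 0.56, 0.83 and 0.33, with overlap through KHSRP siRNA replicate 3. Its difference was -0.42 (adjusted p = 0.206), and with the array number as a block it was called lower (adjusted p = 0.018). Both probes were lower in 4 of 4 pairs of arrays with the same number, although the first differed by only -0.016 in pair 2. AREG and its neighbour EREG thus differed in opposite directions in each of the 4 pairs; that contrast was seen after their values were known and was not tested.

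TGFA, another EGFR ligand, was the tested ligand with the smallest change. Its detected probe read -0.48, -0.42, -0.71 and -0.93 on the control siRNA arrays and -0.19, -0.42, -0.97 and -0.75 on the KHSRP siRNA arrays. The groups overlapped fully and the difference was 0.05, with a 95% confidence interval of -0.39 to 0.50 (limma, adjusted p = 0.933) and of -0.15 to 0.26 with the array number as a block. Its sign turned under median scaling, to -0.019.

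EPGN, or epigen, a low-affinity EGFR ligand, read -0.39, -1.94, 0.22 and -3.12 on the control siRNA arrays and -0.64, -1.92, -3.42 and -0.40 on the KHSRP siRNA arrays. The lowest array of each group, control siRNA replicate 4 and KHSRP siRNA replicate 3, was the one not well above background. The range within the control group was 10.1-fold and that within the KHSRP siRNA group 8.10-fold. The means differed by -0.29, and the same-number differences were -0.25, 0.02, -0.62 and -0.29. EPGN was high on the arrays where its neighbour EREG was low, as the 2 highest EPGN arrays of each group were the 2 lowest for EREG. This is a description over 8 arrays, chosen after the values were seen. The 2 highest EPGN arrays of each group were those with odd array numbers, so the contrast follows the 2 sets of arrays described above. The full-length EGFR probe was high on the same arrays, and the contrast is thus not particular to these neighbours.

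**Figure D2:**
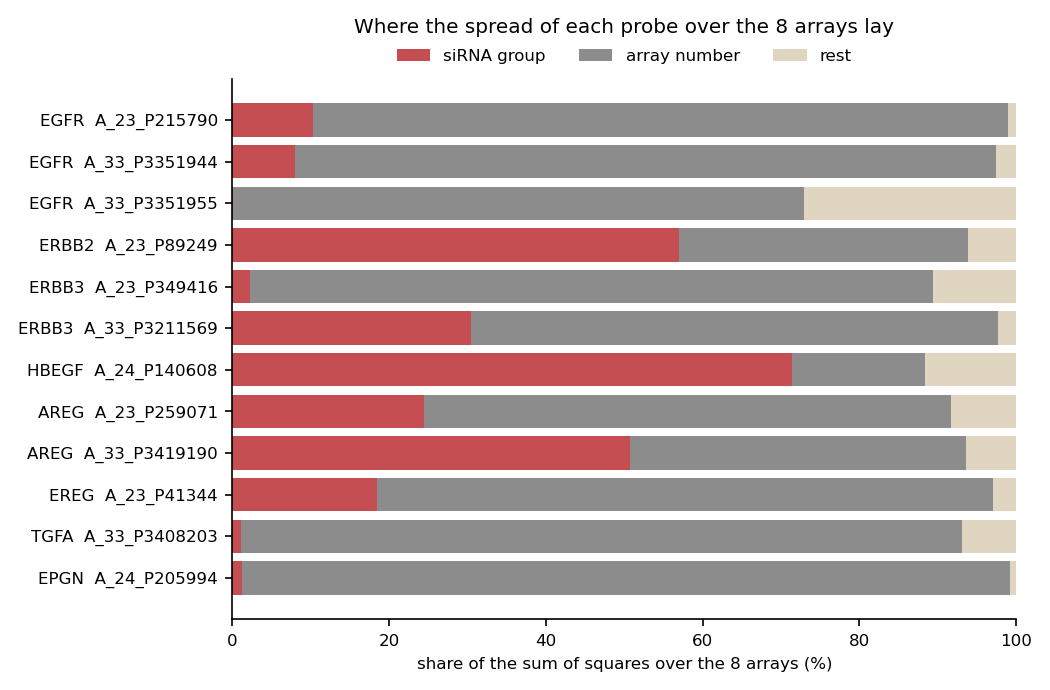
Share of the sum of squares over the 8 arrays (x axis, %) that lay between the siRNA groups (red), between the 4 array numbers (grey) and in the rest (beige), for each tested member probe and EPGN. HBEGF has the largest red share, 71.4%, and EPGN the largest grey share, 97.9%.

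The spread over the 8 arrays was divided between the siRNA groups, the array numbers and the rest. HBEGF, ERBB2 and the second AREG probe were the 3 tested member probes for which the siRNA group held more of it than the array number. The siRNA group held 71.4% of the sum of squares for HBEGF, 56.9% for ERBB2 and 50.7% for the second AREG probe. For TGFA, the full-length EGFR probe and the full-length ERBB3 probe it held 1.14%, 10.2% and 2.24%, and the array number 92.0%, 88.8% and 87.1%. Over all tested probes the median was 14.7% for the siRNA group and 64.5% for the array number, and 8 of the 11 tested member probes exceeded that median for the array number. These shares are descriptions.

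EGFR was measured by 3 probes, listed under 3 transcripts. Probe A_23_P215790 is listed under NM_005228, which encodes the full-length receptor, whereas A_33_P3351944 and A_33_P3351955 are listed under NM_201283 and NM_201282, which encode shorter forms that lack the kinase domain. Whether the latter also pair with the full-length mRNA was not tested. The full-length probe read 0.34, -0.31, 0.53 and -0.61 on the control siRNA arrays and 0.79, -0.12, -0.23 and 0.79 on the KHSRP siRNA arrays. Control siRNA replicates 1 and 3 and KHSRP siRNA replicates 1 and 4 were the high ones, and the groups overlapped. The difference of 0.32 was not called (95% confidence interval -0.45 to 1.09, limma, adjusted p = 0.700). It was positive in 4 of 4 pairs with the same number, from 0.20 to 0.45, and was called with the array number as a block (0.14 to 0.50, adjusted p = 0.024).

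The probe of the NM_201283 form read -1.19, -1.95, -1.10 and -2.19 on the control siRNA arrays and -1.35, -2.55, -2.40 and -1.35 on the KHSRP siRNA arrays. The same arrays were high as for the full-length probe, but the difference had the opposite sign, -0.31 (limma, adjusted p = 0.747; 0.057 with the array number as a block), and was negative in 4 of 4 pairs. The probe of the NM_201282 form was dimmer, from -3.39 to -1.55 over the 8 arrays, with a difference of 0.02 whose 95% confidence interval ran from -0.80 to 0.84.

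ERBB2 read 2.04, 2.104, 2.08 and 2.40 on the control siRNA arrays and 2.29, 2.68, 2.72 and 2.41 on the KHSRP siRNA arrays. It was the steadiest tested member, ranging over 0.68 across the 8 arrays, and the groups overlapped through control siRNA replicate 4. The difference of 0.37, or 1.29-fold, missed the threshold (95% confidence interval 0.05 to 0.70, limma, adjusted p = 0.190). It was positive in 4 of 4 pairs, from 0.25 to 0.57, and was called with the array number as a block (adjusted p = 0.019).

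ERBB3 was measured by 2 detected probes, one under NM_001982, the full-length receptor, and one under NM_001005915, a short secreted form that ends in the extracellular part. Whether the latter probe also pairs with the full-length mRNA was not tested, as for EGFR. The undetected ERBB3 probe, A_33_P3280471, is listed under the full-length transcript too. The full-length readings below therefore come from A_23_P349416 alone. The full-length probe A_23_P349416 read -2.50, -2.06, -2.99 and -1.83 on the control siRNA arrays and -2.15, -1.34, -1.62 and -3.47 on the KHSRP siRNA arrays. The lowest of these, KHSRP siRNA replicate 4, was not well above background. The difference was 0.20 (limma, adjusted p = 0.889; 0.474 with the array number as a block), and it was -0.016 without control siRNA replicate 3 and -0.070 without KHSRP siRNA replicate 2. The probe of the secreted form, A_33_P3211569, read -0.95, -0.52, -1.55 and -0.35 against -1.88, -0.98, -0.996 and -2.12. Its difference of -0.65 was not called (adjusted p = 0.366), was negative in 4 of 4 pairs, from -0.93 to -0.46, and was called with the array number as a block (-0.88 to -0.41, adjusted p = 0.0072).

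**Figure D3:**
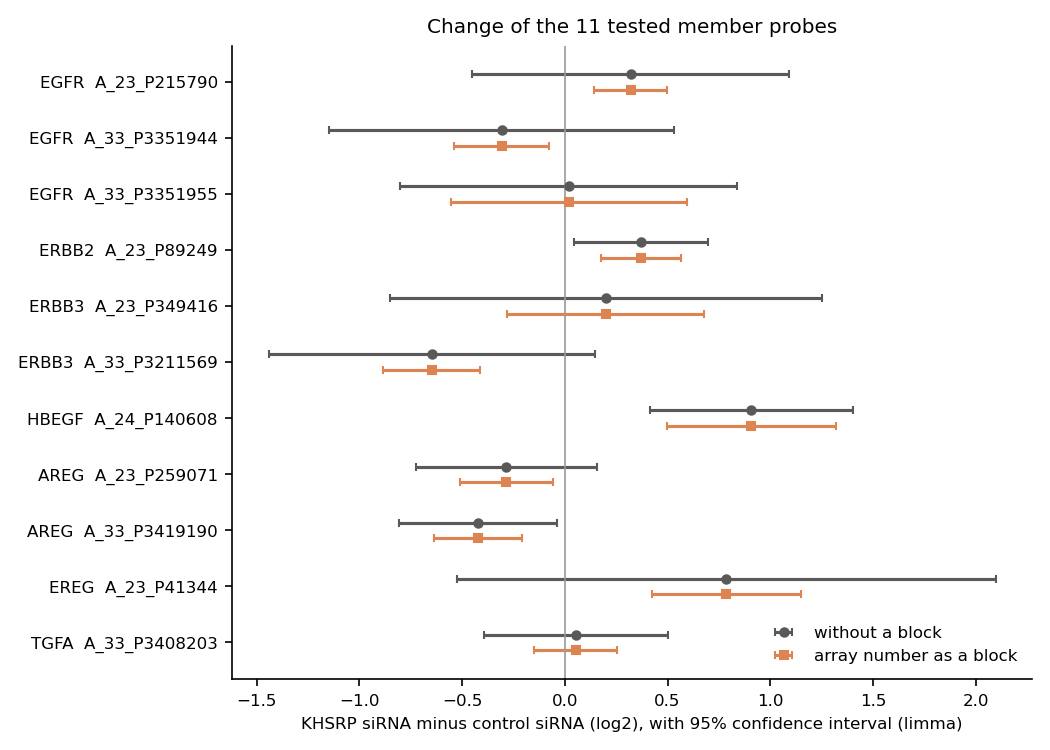
Difference between KHSRP siRNA and control siRNA (x axis, log2) of the 11 tested member probes with its 95% confidence interval from limma, without a block (grey circles) and with the array number as a block (orange squares). The estimates are the same in both fits, and the intervals of 5 probes (EGFR A_23_P215790 and A_33_P3351944, ERBB3 A_33_P3211569, AREG A_23_P259071 and EREG) leave 0 only with the block.

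With the array number as a block, 6 of the 11 tested member probes were called, 4 higher (the full-length EGFR probe, ERBB2, HBEGF and EREG) and 2 lower (the ERBB3 probe A_33_P3211569 and an AREG probe). That fit called 30.1% of all 18761 tested probes, 14.8% higher and 15.3% lower. The 4 same-number differences had one sign in 8 of the 11 member probes and in 50.7% of all tested probes. With the title number as a block 0 of the 11 were called, against 0.832% of all tested probes.

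Since probes of one gene moved apart, the difference between 2 probes of a gene on the same array was compared between the groups. This comparison was chosen after the values were seen. All 5 pairs of tested probes of one gene were used, and the p-values were adjusted over these 5. A difference within an array does not depend on how arrays are scaled to each other by a constant, and shows unequal change of the 2 probes, not which of them changed.

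**Figure D4:**
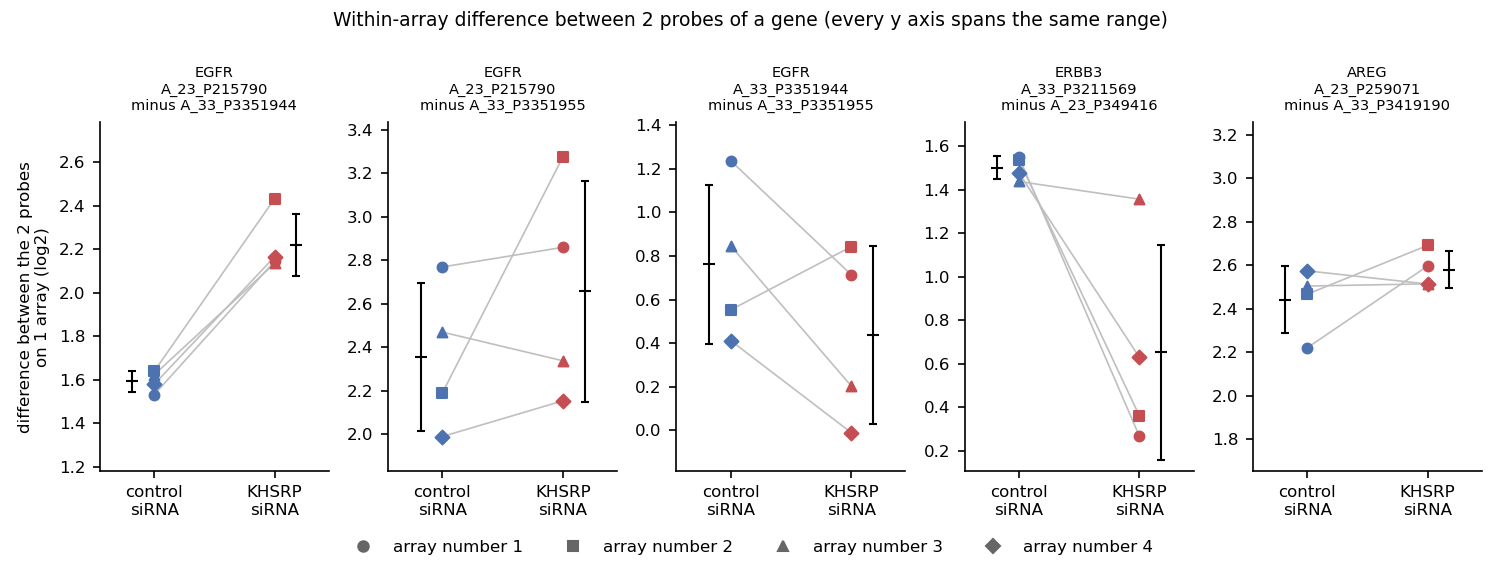
Difference between 2 probes of a gene on the same array (y axis, log2; each panel spans the same range around its own values) in control siRNA (blue) and KHSRP siRNA (red), with shapes and grey lines for the array number and black bars for the mean ± SD of 4 arrays. For EGFR A_23_P215790 minus A_33_P3351944 the control points lie between 1.53 and 1.64 and the KHSRP siRNA points between 2.14 and 2.43; for ERBB3 the control points lie between 1.44 and 1.55 and the KHSRP siRNA points between 0.27 and 1.36.

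In EGFR, the full-length probe exceeded the probe of the NM_201283 form by 1.53, 1.64, 1.62 and 1.58 on control siRNA replicates 1 to 4. On KHSRP siRNA replicates 1 to 4 the difference was 2.15, 2.43, 2.17 and 2.14. The groups did not overlap, and the control arrays spread over a much narrower range than either probe alone. The mean difference went from 1.59 ± 0.05 to 2.22 ± 0.14 (SD, n = 4 each), a shift of 0.63 ± 0.08 (SE) or 1.54-fold, with p = 0.0286 in an exact two-sided permutation test, the smallest that this design allows, and 0.0714 after adjustment over the 5 pairs. Of the 4455 pairs of tested probes of one gene on the array, in 2720 genes, 9.58% had groups that did not overlap and 11.7% shifted by more than 0.5 in either direction. After normexp background correction the shift was 0.36 and the groups overlapped.

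In ERBB3, the probe of the secreted form exceeded the full-length probe by 1.55, 1.54, 1.44 and 1.48 on the control siRNA arrays. On the KHSRP siRNA arrays the difference was 0.27, 0.36, 0.63 and 1.36. The last value came from replicate 4, where the full-length probe was not well above background, and it alone lay near the control range. Over all arrays the shift in the difference between the 2 probes was -0.85 on the log2 scale (n = 4 each; exact two-sided permutation test, p = 0.0286; 0.0714 adjusted over the 5 pairs), and without replicate 4, whose value rests on a signal near background, it was -1.08. After quantile normalization the shift was -0.80 and the groups overlapped, and after normexp background correction it was -0.32 without overlap. Neither the EGFR nor the ERBB3 shift passed the threshold of 0.05 after adjustment. Both were at the smallest p that this design allows, and the other pairs were not. With those pairs neither shift could have passed, however large it was, so the adjusted p does not decide.

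The other 3 pairs overlapped between the groups. In AREG, whose 2 probes are listed under one transcript, the difference went from 2.44 ± 0.15 to 2.58 ± 0.08 (SD, n = 4 each; exact permutation test, p = 0.143). The pairs that held the dim NM_201282 probe of EGFR shifted by 0.30 and -0.32 (exact permutation test, p = 0.371 and 0.257).

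The remaining receptor and ligands of the family gave no call. ERBB4, which binds neuregulins and EREG, and NRG3 were above background on no array. EGF itself was lower by 0.53 ± 0.30 (SE; limma, adjusted p = 0.386), negative in 4 of 4 pairs and called with the array number as a block (adjusted p = 0.0066). The EGF probe was well above background on 4 control siRNA arrays and on 2 KHSRP siRNA arrays. It thus passed the filter only through the control group, where its level was higher. NRG1, a ligand of ERBB3, read 2.05, 0.56, 2.54 and -0.05 on the control siRNA arrays and 1.78, 0.27, -0.53 and 1.95 on the KHSRP siRNA arrays, with the same arrays high as for EGFR and EPGN. Its difference of -0.40 was not called (adjusted p = 0.851; 0.017 with the array number as a block). Of 4 tested genes of this list 3 were lower, and the median difference was -0.32. EGF, NRG2 and NRG4 passed the filter only through the control group, which favours genes that are lower in KHSRP siRNA. The count and the median are therefore no result about the list.

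**Figure D5:**
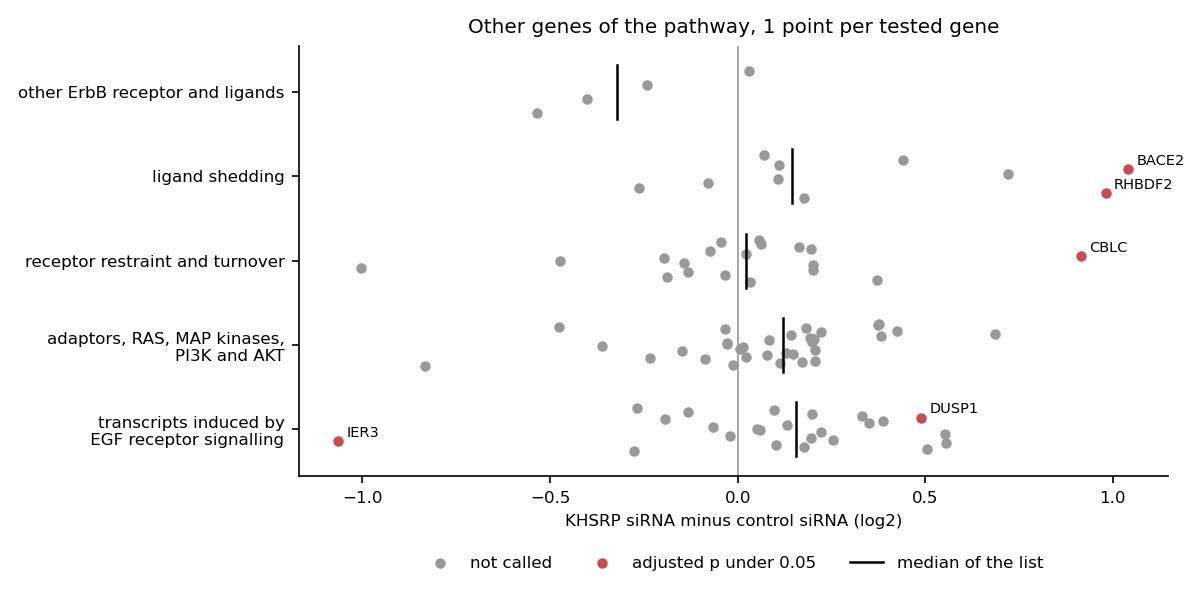
Change of each tested gene of the 5 pathway lists (x axis, KHSRP siRNA minus control siRNA, log2; the brightest tested probe of each gene), with called genes in red and named, other genes in grey and the median of each list as a black line. The 2 called shedding genes BACE2 and RHBDF2 lie near 1, and IER3 is the called gene on the left.

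In the list of ligand shedding, 2 of 10 tested genes were called, both higher, where 5.54% of all tested probes were called and 1.92% called higher. Like the other pathway lists, it was chosen with earlier results of these data known, so this share is no result about the list. Of the 10 genes 8 were higher, and the median was 0.14. RHBDF2, or iRhom2, which carries the protease ADAM17 to the cell surface, read 2.35, 1.94, 2.42 and 1.84 on the control siRNA arrays and 3.15, 3.15, 2.87 and 3.29 on the KHSRP siRNA arrays, a rise of 0.98 ± 0.17 (SE; limma, adjusted p = 0.013) without overlap. BACE2, an aspartyl protease related to beta-secretase, went from 1.03 ± 0.06 to 2.07 ± 0.07 (SD, n = 4 each), a rise of 1.04 (limma, adjusted p = 0.0011). ADAM17, the main sheddase of HBEGF, AREG and TGFA, differed by 0.11 ± 0.11 (SE; adjusted p = 0.662).

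Of the 19 genes that restrain the receptors or turn them over, all were tested and 1 was called, near the 5.54% of all tested probes. CBLC, a ubiquitin ligase of the CBL family that acts on activated EGFR, had a mean of -0.96 ± 0.41 in the control group and of -0.045 ± 0.19 in the KHSRP siRNA group (SD, n = 4 each), a rise of 0.92 (limma, adjusted p = 0.041). Of the list 10 were higher and 9 lower, and the median was 0.02. CBLB, of the same family, read 1.48, 0.30, 1.96 and -0.11 against 0.51, -0.48, -1.25 and 0.83, with overlap, and its difference of -1.003 was not called (adjusted p = 0.405; 0.0021 with the array number as a block).

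In the list of adaptors, RAS, MAP kinases, PI3K and AKT, 0 of 32 tested genes were called by their brightest probe (limma), against 5.54% of all tested probes. At an unadjusted p under 0.05, 6 of the 32 passed, against 3677 of all 18761 tested probes. Of the list 22 were higher and 10 lower, and the median was 0.12. The largest difference was that of PIK3R1, the regulatory subunit p85 alpha of PI3K, at -0.83 ± 0.22 (SE; adjusted p = 0.067), negative in 4 of 4 pairs and called with the array number as a block (adjusted p = 0.0088). That fit called 4 genes of the list higher and 4 lower, and of all tested probes 14.8% higher and 15.3% lower. Probes of AKT2 and ARAF other than the brightest were called, AKT2 A_33_P3381647 at 0.57 and ARAF A_33_P3362353 at -0.81 (adjusted p = 0.048 and 0.026), while the brightest probes differed by 0.0061 and -0.033. The ARAF probe is listed under a different transcript, NM_001256197, from the brightest one. Both were chosen after their values were seen.

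Among transcripts that EGF receptor signalling is known to induce, 2 of 24 tested genes were called, in opposite directions. IER3, an immediate-early gene, fell by 1.06 on the log2 scale, from 6.40 ± 0.52 to 5.34 ± 0.21 (SD, n = 4 each; limma, adjusted p = 0.047), and its second probe fell by 0.98 (adjusted p = 0.034). DUSP1, a phosphatase of MAP kinases, rose by 0.49 ± 0.11 (SE; adjusted p = 0.034). Of the list 17 were higher and 7 lower, and the median was 0.15 against 0.01 over all tested probes. Over the 5 lists, 5 of 89 tested genes were called, against the 5.54% of all tested probes, and with the array number as a block 27 of 89, against 30.1%.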

How the data were processed

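Per the labels, RNA of 4 control siRNA and 4 KHSRP siRNA samples was labelled with Cy3 and hybridised to whole human genome arrays. The authors extracted spots with Agilent Feature Extraction, version 11.5.1.1 per the file headers and 12.6 per the submitters' processing notes. The deposited scanner values are linear fluorescence intensity, background-subtracted within the array and not scaled between arrays. The authors also deposited a series matrix of log2 values, used as an alternative. Accessions gave a symbol for 27241 probes (64.2%).

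From the intensities, control and outlier spots were left out, log2 values were averaged per probe, and the 75th percentile of each array was subtracted. The number of arrays limits the precision. Groups were fitted with limma 3.58.1 in R 4.3.3 over all tested probes, with Benjamini-Hochberg adjustment and a threshold of 0.05. Tested probes had a share of 0.5 or more of their spots above background, by the scanner's flag, on every array of either group. The fit was tested on simulated data drawn independently for each probe and array. That test does not cover the sets of arrays that deviated together. For single values, exact permutation tests were used.

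The genes and lists were chosen with earlier results of these data known. Every member was named by every probe. Of each pathway list, called genes were named (the 5 largest where more were called) or the largest change where none was. The 3 genes most like HBEGF were named too. ERBB4, NRG1, NRG3, ADAM17, CBLB and the other AKT2 and ARAF probes were named outside this rule, with earlier results known. The array numbers were used as pairs because every pair correlated at over 0.1. Other pairings within the odd or within the even numbers would also pass this rule, so it does not show which arrays belong together. Alternatives covered scaling, background correction, the filter, blocks, weights and leaving out each array. No sample was left out.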

Additional observations from a re-analysis of the deposited data

Results flagged for a closer look

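In 50 groups of 4 arrays, 2 single arrays stood apart from the other 3 of their group by a Dixon test at the 95% level, which chance gives in about 1 of 20 groups. For the EGFR difference between the full-length probe and that of the NM_201283 form, KHSRP siRNA replicate 2 lay at 2.43, above the next array at 2.17. For BACE2, KHSRP siRNA replicate 4 lay at 2.17, above the next array at 2.05.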

How the results depend on the processing

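The fall of KHSRP was called under all 21 alternatives, between -3.46 and -3.22. HBEGF stayed higher under all 21 (0.56 to 1.08) and was called under 7. The number of called member probes, 1, became 0 under quantile normalization, median scaling, the percentile over detected probes, normexp, no filter, the title number as a replicate block and the methods' t-test (3 of 11 at an unadjusted p under 0.05; over all probes 3710, and 1081 after Benjamini-Hochberg), and 6 with the series matrix number as a replicate block. Leaving out 1 array gave 0 to 1 member probes. The 1039 called probes became 570 under median scaling, 319 without the filter, 156 with the title number and 5644 with the series matrix number as a replicate block, and 489 to 766 when 1 array was left out (489 without control siRNA replicate 1, 527 without control siRNA replicate 2, 685 without control siRNA replicate 3, 605, 594 and 670 without KHSRP siRNA replicates 1, 2 and 4). The 5 called pathway genes became 2 under median scaling, 1 without the filter, 3 with the slide as a block, 1 and 27 with the 2 replicate blocks, 8 with array weights, and 2 to 3 when 1 array was left out. Signs turned for changes near 0, namely EGFR A_33_P3351955 under quantile normalization (-0.0011), median scaling (-0.055) and array weights (-0.051) and between -0.25 and 0.37 with 1 array left out, TGFA under median scaling (-0.019) and between -0.075 and 0.18 with 1 array left out, and the full-length ERBB3 probe, between -0.070 and 0.64. The cause was not tested. Control levels of all 11 tested member probes moved by less than their SD under quantile normalization (set to the same percentile), and median scaling only moved their zero. They also moved by less than their SD with 1 control array left out. That check could not fail, since leaving out 1 of 4 values cannot move their mean by a full SD. The EGFR and ERBB3 probe differences shifted by 0.56 to 0.66 and by -1.08 to -0.72 with 1 array left out.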
